A study of Mus musculus with 80 samples.

Results

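The paraoxonase family of the mouse holds 3 genes, Pon1, Pon2 and Pon3, which were followed across 4 strains and 4 styrene doses in whole lung. They were selected on measured values of these data, because Pon1 had been seen to fall in C57Bl/6 WT and in CD-1 mice, so the falls of Pon1 in those strains chose the members and are given as a description with no test. A gene was read from probe sets annotated with its symbol alone, and where there were several the one with the highest mean over the 80 arrays stood for it. All 3 genes were found, among 17097 genes with a single symbol, and all 3 were among the 11406 genes whose signal lay above the table's median in at least 5 arrays. Pon1 and Pon3 each had 1 probe set and Pon2 had 4.

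The mice were adult males from Taconic that breathed styrene, a solvent used to make plastics, or air once for 6 h, and lungs were taken the next morning. The genotypes were C57Bl/6 mice with the mouse gene Cyp2f2 knocked out (KO), C57Bl/6 mice humanized for CYP2F1 (TG), CD-1 mice, which are an outbred stock, and C57Bl/6 wild type mice (WT). Each genotype was exposed to 10, 40 or 120 ppm styrene or to air (0 ppm), with 5 arrays in each of the 16 groups, labelled as biological replicates. The labels do not say which promoter drives CYP2F1 in TG or whether TG also lack Cyp2f2. CYP2F2 and its human counterpart CYP2F1 are cytochrome P450 enzymes that oxidize styrene and are typical of club cells, which secrete proteins onto the airway surface.

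Paraoxonases are calcium-dependent enzymes that open lactone rings, and PON1 also splits aryl esters and the oxidized forms of some organophosphate insecticides. In humans, PON1 and PON3 are made mainly by the liver and circulate on high-density lipoprotein (HDL), where they limit the oxidation of lipids. PON2 stays inside cells, in membranes, in most tissues. Styrene is oxidized to an epoxide that epoxide hydrolase and glutathione conjugation clear. The genes lie side by side on chromosome 6, where the order in RefSeq was Ppp1r9a, Pon1, Pon3, Pon2 and Asb4.

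The 250 bases just before each start site are shown because the 3 genes lie next to each other but start from separate promoters, which differ in CpG content. The sequences are RefSeq's, from the GRCm38.p6 build, all on the minus strand and written 5′ to 3′, with each CG in capitals.
Pon1, chr6:5193947-5194196: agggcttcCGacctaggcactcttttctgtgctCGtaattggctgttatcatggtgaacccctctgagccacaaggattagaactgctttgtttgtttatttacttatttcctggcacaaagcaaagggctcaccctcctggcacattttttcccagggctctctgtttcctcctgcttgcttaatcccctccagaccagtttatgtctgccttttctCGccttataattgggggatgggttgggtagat
Pon3, chr6:5256234-5256483: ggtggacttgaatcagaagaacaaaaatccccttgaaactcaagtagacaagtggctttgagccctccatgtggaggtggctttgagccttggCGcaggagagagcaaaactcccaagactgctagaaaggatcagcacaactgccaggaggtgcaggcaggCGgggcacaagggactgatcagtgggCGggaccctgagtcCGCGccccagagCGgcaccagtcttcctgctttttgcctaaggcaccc
Pon2, chr6:5298341-5298590: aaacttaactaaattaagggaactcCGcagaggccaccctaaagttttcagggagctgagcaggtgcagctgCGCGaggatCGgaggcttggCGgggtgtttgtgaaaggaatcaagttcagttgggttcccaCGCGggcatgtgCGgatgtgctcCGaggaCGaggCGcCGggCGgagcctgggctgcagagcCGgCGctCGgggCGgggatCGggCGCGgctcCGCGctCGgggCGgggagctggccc
The window of Pon1 held 3 CG pairs and was 47.6% G or C, that of Pon3 held 6 and was 56.8% G or C, and that of Pon2 held 24 and was 65.6% G or C. Over the 32851 promoters of the same table the median was 6 CG pairs, and 29.0% had fewer than Pon1, 49.6% fewer than Pon3 and 88.0% fewer than Pon2. Motifs were searched as plain letters on both strands. TATAA, the TATA box core, was found in Pon1, where the letters TTATAA read the same on both strands and give overlapping matches that begin 28 and 27 bases before the start, and it was not found in the windows of Pon3 and Pon2 (22.8% of all promoters hold it). CCAAT was found in Pon1 213 and 23 bases before the start, on the opposite strand, and not in the other windows (33.8% of promoters). GGGCGG, the core bound by Sp1 factors, began 65 bases before the start of Pon3 and 79, 47 and 17 bases before that of Pon2, and was not found in Pon1 (32.7%). GCGTG, the core bound by the aryl hydrocarbon receptor, was found once, in Pon2, 119 bases before the start (28.2%). These matches describe the letters of the windows and do not show binding.

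Values are log2 signals, so 1 unit is a 2-fold difference, and levels of different genes are not compared because each probe set reads with its own efficiency. Array medians averaged 4.17 in KO, 4.10 in TG, 4.27 in CD-1 and 4.57 in WT, and the array TG 0 ppm replicate 4 was the lowest at 3.84, so comparisons between strains are given on 2 scales, as deposited and after each array's own median was subtracted. Cyp2f2 averaged 11.68 ± 0.10 in KO and 11.66 ± 0.19 in TG in air, against 13.02 ± 0.09 in CD-1 and 13.23 ± 0.03 in WT (SD, n = 5 each). The place of its probe set relative to the deleted part of the gene is not known here, so the remaining signal in KO and TG says nothing of transcript. No 2 arrays held the same values. In bulk lung, fewer cells of a type and less RNA per cell cannot be told apart.

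Pon1, the serum paraoxonase, was lower after styrene at every dose in WT. Its log2 signals were 9.58, 9.08, 9.27, 9.03 and 8.89 in WT at 10 ppm, 8.91, 9.21, 8.95, 8.41 and 9.41 at 40 ppm, and 8.62, 8.96, 8.98, 8.91 and 8.91 at 120 ppm, against 10.67, 10.62, 10.42, 10.68 and 10.44 in WT in air. All 15 exposed arrays lay below all 5 air arrays, with the largest part of the difference already present at the lowest dose. The change against air was -1.40 ± 0.15 at 10 ppm, -1.59 ± 0.15 at 40 ppm and -1.69 ± 0.15 at 120 ppm (SE, n = 5 arrays per group), or 2.63-fold, 3.01-fold and 3.23-fold lower. Between exposed doses the WT differences were -0.30 ± 0.15 for 120 ppm against 10 ppm and -0.10 ± 0.15 for 120 ppm against 40 ppm. Counted from the lowest change among the 11406 genes, Pon1 stood in place 4 at 10 ppm, 14 at 40 ppm and 9 at 120 ppm. Of all genes tested, 4.16% at 10 ppm, 8.28% at 40 ppm and 7.85% at 120 ppm were lower in WT with no overlap between exposed and air arrays, and since the rule used this contrast nothing is read from Pon1 being among them.

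In CD-1 mice the signals of Pon1 were 10.42, 10.11, 10.07, 10.15 and 9.56 at 10 ppm, 8.80, 9.32, 9.45, 8.93 and 9.81 at 40 ppm, and 9.81, 9.36, 10.21, 9.87 and 9.50 at 120 ppm, against 10.53, 10.78, 10.65, 10.97 and 10.68 in air. Every exposed array was again below every air array, but here 40 ppm gave the lowest group mean and the arrays at 40 and 120 ppm overlapped. The changes were -0.66 ± 0.19, -1.46 ± 0.19 and -0.97 ± 0.19 at 10, 40 and 120 ppm, or 1.58-fold, 2.75-fold and 1.96-fold lower, and the difference between 120 ppm and 40 ppm was 0.49 ± 0.19. Few genes moved in this strain. With no overlap, 0.202% of genes were lower at 10 ppm, 0.175% at 40 ppm and 0.509% at 120 ppm, and Pon1 had place 37, 4 and 29 from the lowest change. At an adjusted p under 0.05 (limma, Benjamini-Hochberg over all genes), 0% of genes passed at 10 ppm, 0.00877% at 40 ppm and 0.0175% at 120 ppm, and nothing is read from these shares for Pon1. At an unadjusted p under 0.05 the counts were 272, 442 and 597 genes.

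**Figure D1:**
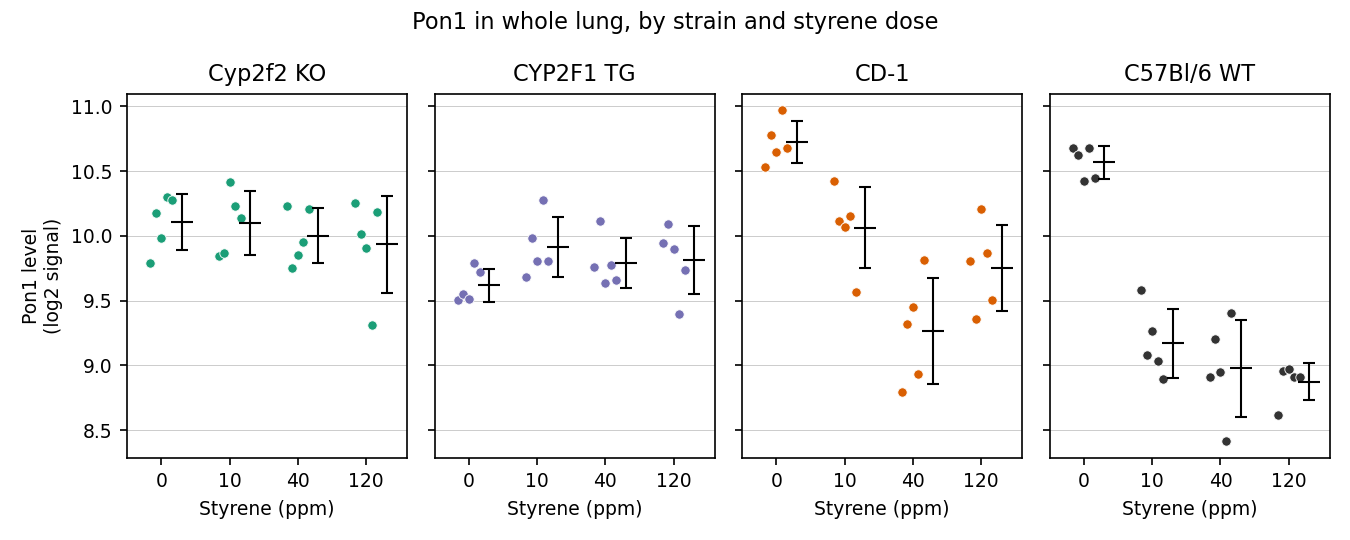
Pon1 level in whole lung as log2 signal (vertical axis) by styrene dose in ppm (horizontal axis) in KO, TG, CD-1 and WT mice; each point is 1 array (n = 5 per group) and the black bar is the mean ± SD. The exposed arrays of CD-1 and WT lie below the air arrays of the same strain at all 3 doses, and those of KO and TG overlap them.

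In KO and TG, which the rule did not use, Pon1 was tested and no dose passed. At 120 ppm its signals were 10.25, 10.01, 9.91, 9.32 and 10.19 in KO, against 9.79, 10.18, 9.98, 10.30 and 10.28 in KO in air. The KO arrays at 10 ppm spanned 9.84 to 10.42 and those at 40 ppm 9.75 to 10.23, so every dose overlapped air. The KO changes were -0.01 ± 0.16, -0.11 ± 0.16 and -0.17 ± 0.16 at 10, 40 and 120 ppm, with limma adjusted p = 0.996, 0.997 and 0.958. The 95% interval at 120 ppm was -0.50 to 0.15. In KO no gene passed by limma at any dose (0% at 10 ppm, 0% at 40 ppm, 0% at 120 ppm and 0% for the slope over dose rank), with 649, 564 and 596 genes at an unadjusted p under 0.05 at the 3 doses.

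In TG the signals of Pon1 at 120 ppm were 9.94, 10.09, 9.89, 9.40 and 9.74, against 9.51, 9.55, 9.51, 9.79 and 9.72 in TG in air. The exposed TG means were above the air mean at every dose, with overlapping arrays. The changes were 0.29 ± 0.13, 0.17 ± 0.13 and 0.20 ± 0.13 at 10, 40 and 120 ppm (adjusted p = 0.319, 0.765 and 0.526 by limma). At 10 ppm the unadjusted limma p of Pon1 was under 0.05 as deposited. With array medians subtracted, that of no paraoxonase gene was. In TG 0% of genes passed at 10 and at 40 ppm, with 1579 and 867 genes at an unadjusted p under 0.05, and 0.0701% passed at 120 ppm and likewise 0.0701% for the slope. The median change of all genes in TG at 120 ppm was 0.06, and with each array's median subtracted the Pon1 changes were 0.24, 0.11 and 0.13. The slope of Pon1 per dose step was -0.06 ± 0.05 in KO (adjusted p = 0.99) and 0.05 ± 0.04 in TG (adjusted p = 0.668).

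Set side by side, the change of Pon1 in KO minus that in WT was 1.39, 1.49 and 1.52 at 10, 40 and 120 ppm (SE 0.22), and in TG minus WT it was 1.69, 1.76 and 1.89 (SE 0.20). In CD-1 minus WT it was 0.74, 0.13 and 0.72 (SE 0.25), so that the strains stood nearest at 40 ppm. These differences hold WT arrays that chose the members, share the WT arrays with each other and were not tested. The difference between TG and KO holds none of those arrays and was tested. For Pon1 it was 0.30, 0.28 and 0.37 (SE 0.21, adjusted p = 0.651, 0.779 and 0.548 by limma), and neither Pon2 nor Pon3 passed at any dose. Of all genes, 0.0175% passed at 10 ppm, 0% at 40 ppm and 0% at 120 ppm, with 1148, 902 and 1190 at an unadjusted p under 0.05.

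Pon3 changed by a smaller amount in WT than Pon1. Its signals were 8.75, 8.82, 8.78, 8.88 and 8.89 in WT at 120 ppm, against 9.17, 9.20, 9.20, 9.16 and 8.97 in WT in air. The 120 ppm arrays lay below all air arrays, as for 7.85% of the genes tested in that contrast. Those at 10 ppm (8.73 to 9.11) and 40 ppm (8.62 to 9.01) overlapped air. The WT changes were -0.16 ± 0.08, -0.29 ± 0.08 and -0.32 ± 0.08, given as a description because the contrast chose the family. In CD-1 the changes of Pon3 were -0.04 ± 0.12, -0.13 ± 0.12 and 0.17 ± 0.12, with overlap at every dose. In KO they were 0.04, 0.15 and 0.10 (SE 0.10, adjusted p = 0.981, 0.989 and 0.958 by limma).

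In TG, Pon3 had 8.38, 8.36, 8.41, 8.61 and 8.42 at 10 ppm, against 8.33, 8.29, 8.28, 8.03 and 8.08 in air. All 5 exposed arrays were above all air arrays, as for 1.9% of the genes tested in that contrast. The change was 0.23 ± 0.09 at 10 ppm, 0.18 ± 0.09 at 40 ppm and 0.22 ± 0.09 at 120 ppm, with unadjusted p = 0.0204, 0.0699 and 0.0302, and none passed (limma adjusted p = 0.294, 0.678 and 0.345). With array medians subtracted the TG changes of Pon3 were 0.18, 0.12 and 0.15. The array with the lowest median, TG 0 ppm replicate 4, also had the lowest Pon3 signal of that group. Without it the changes were 0.19, 0.14 and 0.17, and those of Pon1 in TG were 0.34, 0.22 and 0.24.

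Pon2, the intracellular paraoxonase, moved by at most 0.17 from air in any strain, and in WT its mean was lower at each higher dose. Its WT signals spanned 9.59 to 9.88 at 120 ppm, 9.70 to 9.92 at 40 ppm and 9.59 to 10.03 at 10 ppm, against 9.83 to 10.01 in air, with overlap at each dose. The WT changes were -0.06 ± 0.07, -0.09 ± 0.07 and -0.17 ± 0.07 at 10, 40 and 120 ppm. In CD-1 they were -0.04, 0.03 and -0.01 (SE 0.05). In KO they were 0.00, 0.11 and 0.03 (SE 0.08) and in TG 0.06, 0.07 and 0.10 (SE 0.09), with adjusted p of at least 0.682 at every dose by limma. A second probe set of Pon2, with a mean signal of 8.34, gave WT changes of -0.07, -0.14 and -0.13. The others, with mean signals of 3.70 and 3.41, lay below the table's median of 4.28 and entered only the alternatives for the choice of probe set. The probe set that stands for Pon2 is of a kind marked as able to match more than 1 transcript.

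**Figure D2:**
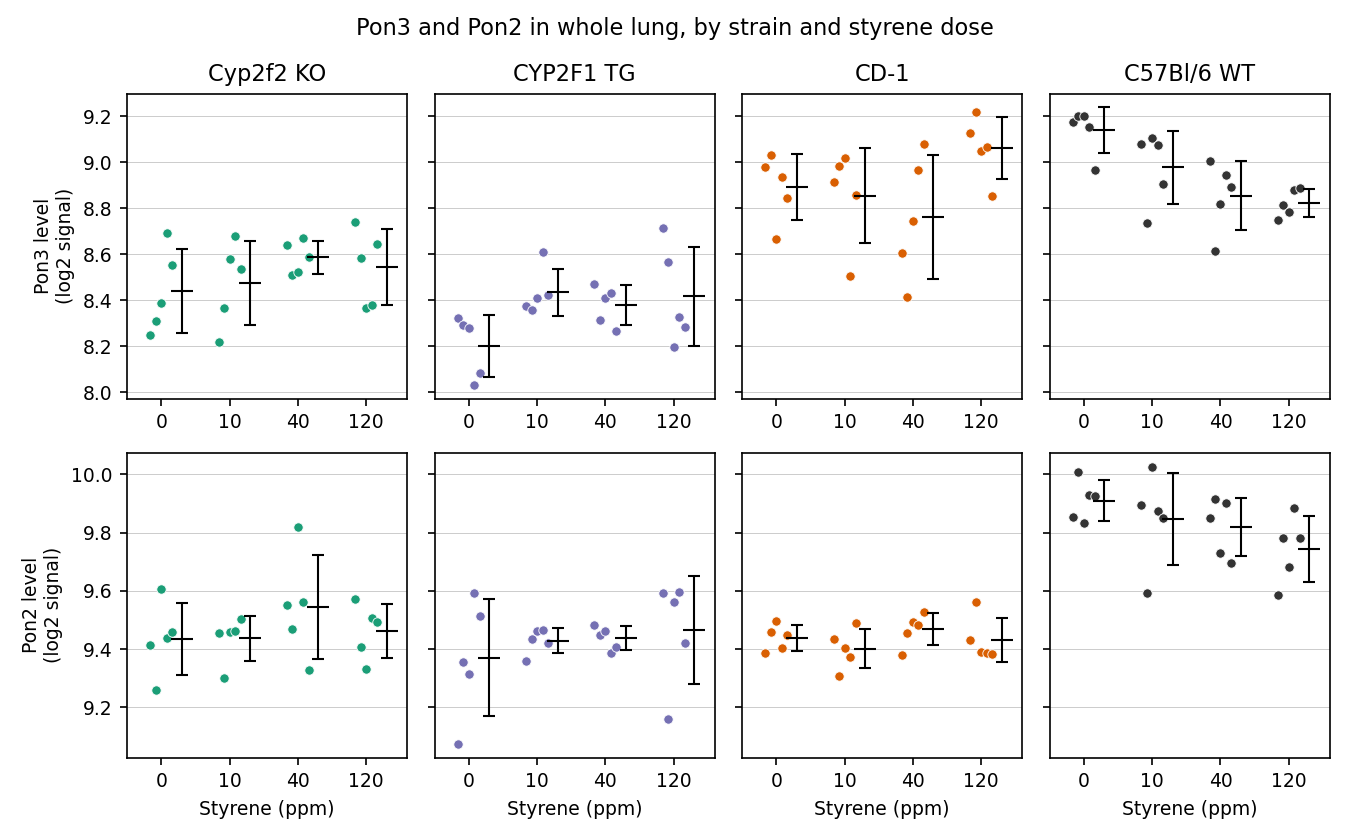
Pon3 (upper row) and Pon2 (lower row) levels as log2 signal (vertical axes) by styrene dose in ppm (horizontal axis) in KO, TG, CD-1 and WT mice; points are arrays (n = 5 per group) and black bars are the mean ± SD. Pon3 at 120 ppm in WT spans 8.75 to 8.89, against 8.97 to 9.20 in WT in air. In that contrast 7.85% of the genes tested were lower without overlap. Pon2 overlaps air in every strain.

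**Figure D3:**
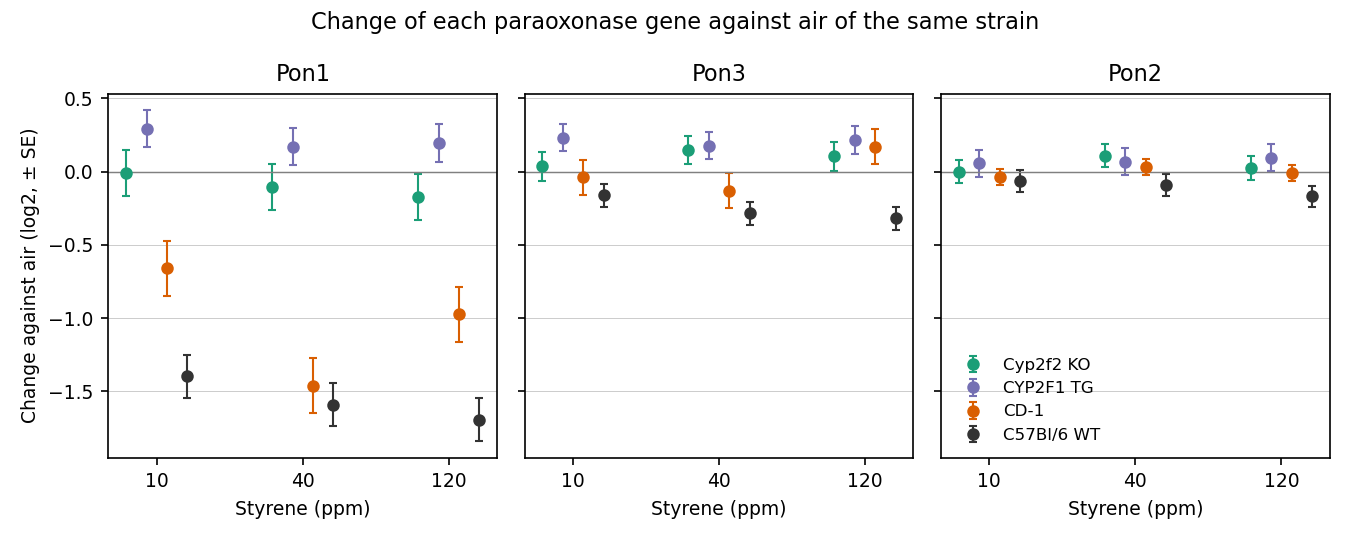
Change against air of the same strain (log2, point ± SE, n = 5 arrays per group) of Pon1, Pon3 and Pon2 at 10, 40 and 120 ppm styrene in KO, TG, CD-1 and WT mice. The changes of Pon1 in CD-1 and WT run from -0.66 to -1.69, and every other change shown lies between -0.32 and 0.29.

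In air the differences between strains depended on the scale. The WT and CD-1 air arrays also entered the contrasts that chose the family by the fall of Pon1, so Pon1 is described against WT with no test. In KO minus WT its difference was -0.46 ± 0.10 as deposited and -0.07 ± 0.11 with array medians subtracted, in TG minus WT -0.95 ± 0.10 and -0.44 ± 0.11, and in CD-1 minus WT 0.15 ± 0.10 and 0.46 ± 0.11. In KO minus WT the deposited differences were -0.48 ± 0.08 for Pon2 (limma adjusted p = 7.86e-05) and -0.70 ± 0.09 for Pon3 (6.08e-06), where 74.6% of all genes were called lower and the median of all genes was -0.37. With array medians subtracted, Pon3 passed at -0.31 ± 0.09 (adjusted p = 0.0268) and Pon2 did not, at -0.08 (0.654), with 5.23% of genes called lower. In TG minus WT the deposited differences were -0.54 ± 0.08 for Pon2 (limma adjusted p = 9.1e-06) and -0.94 ± 0.09 for Pon3 (6.99e-08), with 79.6% of genes lower and a median of all genes of -0.48. With array medians subtracted, Pon3 was lower in TG, with a difference of -0.42 ± 0.09 (adjusted p = 0.00106 by limma), while Pon2 stood at -0.03 (0.871), with 13.6% of genes lower.

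In CD-1 minus WT in air, Pon2 and Pon3 were lower in CD-1 as deposited, with differences of -0.47 ± 0.08 (limma adjusted p = 1.12e-04) and -0.25 ± 0.09 (0.0275), with 48.6% of genes lower and a median of all genes of -0.23. The call of Pon3 was lost without any 1 of 5 arrays, with adjusted p up to 0.083 without CD-1 0 ppm replicate 3. With array medians subtracted neither passed (Pon2 -0.16, adjusted p = 0.217; Pon3 0.06, adjusted p = 0.624), with 11.8% of genes lower.

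TG and KO, neither of which the rule used, differed in Pon1 on both scales. In air Pon1 was lower in TG than in KO, with a deposited difference of -0.49 ± 0.10 (limma adjusted p = 0.00188), with TG arrays of 9.51 to 9.79 and KO arrays of 9.79 to 10.30. With array medians subtracted the difference was -0.37 ± 0.11 (0.0228), with overlap. Of all genes, 22.7% were lower in TG as deposited and 11.8% with medians subtracted. Over all doses (20 arrays each) the difference of Pon1 was -0.25 ± 0.07 as deposited (0.00374) and -0.19 ± 0.08 with medians subtracted (0.0341), where 39.2% and 28.1% of genes were lower. Pon3 over all doses was -0.15 ± 0.05 as deposited (0.00653) and -0.09 ± 0.05 with medians subtracted (0.106). Pon2 did not pass on either scale (adjusted p = 0.392 and 0.754 over all doses).

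The 16 group means of Pon1 ran from 10.72 in CD-1 in air and 10.57 in WT in air to 8.88 in WT at 120 ppm. Between them, from high to low, stood KO at 0, 10 ppm, CD-1 at 10 ppm, KO at 40 and 120 ppm (10.11 to 9.94), then TG at 10, 120 and 40 ppm, CD-1 at 120 ppm and TG in air (9.91 to 9.62), then CD-1 at 40 ppm, WT at 10 ppm and WT at 40 ppm (9.26, 9.17 and 8.98). Of the 15 gaps between neighbours in that order only 1, from WT in air to KO in air, was larger than the greater of the neighbours' SDs. For Pon2 and for Pon3 it was also 1 of 15, and with array medians subtracted it was 2 for Pon1, 0 for Pon2 and 2 for Pon3.

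Of the genes listed as neighbours on chromosome 6, 7 were tested. In WT, Ppp1r9a, which lies next to Pon1 and encodes neurabin, an actin-binding scaffold, fell by 0.30 ± 0.06 at 10 ppm, 0.36 ± 0.06 at 40 ppm and 0.21 ± 0.06 at 120 ppm (limma adjusted p = 0.00113, 1.3e-04 and 0.00891). Casd1, an enzyme that acetylates sialic acid, fell by 0.23 ± 0.06 at 40 ppm and Sgce, which encodes a sarcoglycan, by 0.18 ± 0.07 (adjusted p = 0.00552 and 0.0461), and neither passed at 10 or 120 ppm. Pdk4, a kinase that restrains pyruvate dehydrogenase, stood at -0.30 ± 0.32 at 10 ppm and 0.84 ± 0.32 at 40 ppm in WT. At 120 ppm it stood at 0.37 ± 0.32, and no dose passed (limma adjusted p = 0.599, 0.0623 and 0.435). Slc25a13, a mitochondrial carrier, stood at -0.13 at 120 ppm, Sem1, a proteasome subunit, at -0.02 and Sdhaf3, an assembly factor of succinate dehydrogenase, at -0.11, none of which passed. None of the 7 passed in CD-1, KO or TG, where at most 0.0701% of all genes passed at any dose. Of all genes in WT, 4.9% fell at 10 ppm, 12.4% at 40 ppm and 9.65% at 120 ppm by the same test, and 7.67%, 13.7% and 14.3% rose.

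**Figure D4:**
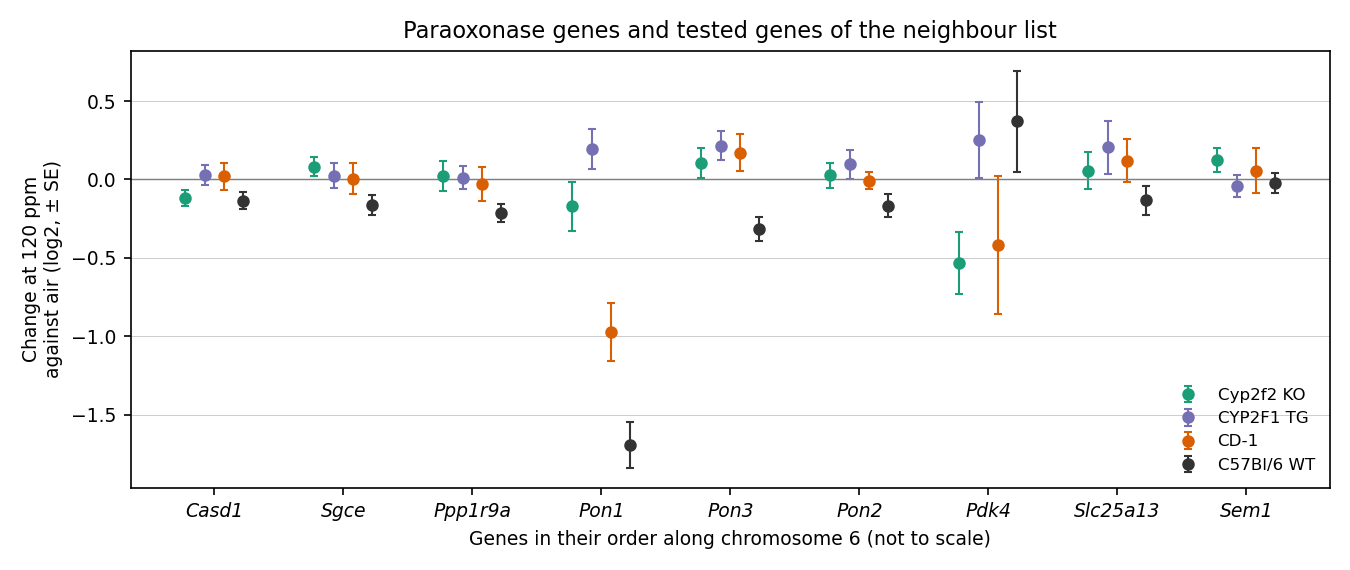
Change at 120 ppm styrene against air of the same strain (log2, point ± SE, n = 5 arrays per group) of the paraoxonase genes and the tested genes of the neighbour list except Sdhaf3, in their order along chromosome 6, in KO, TG, CD-1 and WT mice. Pon1 stands at -0.97 in CD-1 and -1.69 in WT, while its neighbour Ppp1r9a stands at -0.03 in CD-1 and -0.21 in WT.

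Genes with related roles were counted beside the family. Across all genes in WT at 120 ppm, 14.3% rose and 9.65% fell. Of 9 tested genes for HDL proteins and partners of paraoxonase, 3 rose and 1 fell in WT at 120 ppm, with a median change of 0.05 against 0.02 for all genes. Saa3 and Saa1, acute phase proteins that bind HDL, rose by 3.15 ± 0.40 (limma adjusted p = 1.76e-05) and 2.00 ± 0.34 (3.69e-04), and Clu, the HDL-bound chaperone clusterin, by 0.28 ± 0.07 (0.00643). Abcg1, which exports cholesterol to HDL and is high in alveolar macrophages, fell by 0.96 ± 0.10 (1.12e-06). Of 14 other esterases and hydrolases, 2 rose and 5 fell, with a median of -0.17. Ces1g rose by 1.24 ± 0.13 and Ces1d and Ces1e fell by 0.69 ± 0.08 and 1.37 ± 0.20, all carboxylesterases, and Esd, an esterase that completes formaldehyde oxidation, rose by 0.72 ± 0.08. Of 15 genes for peroxide and oxidized lipid defence, Txnrd1 and Txn1 of the thioredoxin system rose (0.50 and 0.14), and catalase (Cat) and superoxide dismutase (Sod1) fell (-0.29 and -0.16). Of 8 transcription factors linked to paraoxonase genes, 1 passed at 120 ppm, Pparg, a lipid-sensing nuclear receptor, which fell by 0.55 ± 0.11 (adjusted p = 0.00109). In WT at 40 ppm, where 12.4% of all genes fell, 3 of the 8 fell and none rose. They were Pparg, Sp1 and Ahr, by 0.39 ± 0.11, 0.185 ± 0.05 and 0.27 ± 0.09 (limma adjusted p = 0.0102, 0.0111 and 0.04). In CD-1, KO and TG none of these genes passed at any dose, where at most 0.0701% of all genes did.

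Many markers of the airway's club cells also fell in WT, where 4.9%, 12.4% and 9.65% of all genes fell at 10, 40 and 120 ppm. Of 13 tested markers, 6 fell at 10 ppm, 11 at 40 ppm and 8 at 120 ppm and none rose, with median changes of -0.30, -0.87 and -0.63, against -1.40, -1.59 and -1.69 for Pon1. Aox3, an aldehyde oxidase, fell by 1.17 ± 0.09 at 120 ppm (limma adjusted p = 4.78e-08), Cckar, a receptor for cholecystokinin, by 0.98 ± 0.11, Cyp2f2 by 0.63 ± 0.08 and Cbr2, a carbonyl reductase, by 0.45 ± 0.06. These were the tested markers with the lowest p in WT at 120 ppm. Scgb1a1, another tested marker, changed little, by -0.061, -0.117 and -0.095 in WT at 10, 40 and 120 ppm (SE 0.04). It passed only at 40 ppm (limma adjusted p = 0.347, 0.0365 and 0.0925). The mean level of the 14 measured markers was 9.43 to 9.71 in WT at 120 ppm and 9.12 to 9.69 at 40 ppm, against 9.94 to 10.23 in WT in air. Upk3a, another marker, was at or below the table's median on all arrays.

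In CD-1 no club cell marker passed at any dose, with median changes of -0.06, -0.12 and -0.05, against -0.66, -1.46 and -0.97 for Pon1. In that strain 0%, 0.00877% and 0.0175% of all genes passed at 10, 40 and 120 ppm. The mean level of the markers was 9.55 to 9.76 in CD-1 at 40 ppm and 9.42 to 9.97 at 120 ppm. In CD-1 in air it was 9.65 to 10.07, so these ranges overlapped. Cyp2f2 stood at -0.18 ± 0.10 and Aox3 at -0.61 ± 0.14 in CD-1 at 40 ppm (adjusted p = 1 and 0.352 by limma). The markers' part in the fall of Pon1 was not tested, and nor was the difference between Pon1 and the markers. No marker passed in KO or TG, where at most 0.0701% of all genes passed at any dose.

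Markers of other cell types also changed in WT at 120 ppm. Among tested ciliated cell markers 3 of 8 fell, among macrophage markers 4 of 10 fell (Siglecf, a lectin of alveolar macrophages, by 1.02 ± 0.11), 2 of 9 alveolar type 2 and 1 of 9 alveolar type 1 markers rose, 3 of 10 fibroblast markers rose and 1 fell, and none passed for neutrophils, endothelial cells, adipose tissue or cardiac muscle. Beside these counts, 14.3% of all genes rose and 9.65% fell in that contrast. Hepatocyte markers were looked at because the liver is the main source of Pon1 and Pon3. Of the 14 measured, Ttr, Apob, Fgb, Serpina1a and Ambp were at or below the table's median on all arrays, and of the 5 tested 1 fell (Trf, by 0.58 ± 0.08) and 1 rose (Hpx, by 0.93 ± 0.14), both also made outside the liver. Their mean level was 4.04 to 4.41 in WT at 120 ppm, against 4.03 to 4.16 in WT in air. The arrays WT 40 ppm replicate 3 and KO 40 ppm replicate 2 stood highest, at 5.14 and 5.07, with Alb at 7.13 and 7.09, and CD-1 120 ppm replicate 2 followed at 4.76, with Alb at 6.58. On these arrays Pon1 stood at 8.95, 9.75 and 9.36, the last 2 being the lowest of their groups, and Pon3 at 8.82, 8.51 and 9.22, the last being the highest of its group. Without that array the change of Pon1 was -1.58 in WT at 40 ppm, -0.04 in KO at 40 ppm and -0.88 in CD-1 at 120 ppm, and that of Pon3 was -0.28, 0.17 and 0.13.

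The genes whose pattern was most like that of Pon1 over the 80 arrays, after each strain's mean was subtracted, were Ldhb, which encodes a lactate dehydrogenase subunit (r = 0.84), Aox3 (0.84), Slc4a5, a bicarbonate carrier (0.80), Elapor1 (0.73) and Aldh1a7, an aldehyde dehydrogenase (0.72). These correlations hold the dose response itself, and are a description over arrays that share strain and dose. In WT at 120 ppm the changes were -0.91 for Ldhb, -1.17 for Aox3, -1.44 for Slc4a5, -1.12 for Elapor1 and -0.61 for Aldh1a7. In CD-1 at 40 ppm they were -0.48, -0.61, -0.57, -0.23 and -0.32 in the same order, and in KO at 120 ppm none was further from 0 than -0.13. Cyp2f2 came in place 22 (r = 0.65), Pon3 in place 372 (0.41) and Pon2 in place 2926 (0.13).

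Subtracting the mean of each group of 5 removes dose and strain and leaves the spread between arrays of a group. Differences between mice and between array preparations cannot be told apart in it. On this measure the list for Pon1 was Ldhb (0.58), Dnajb6, a chaperone (0.57), Elapor1 (0.55), Aldh1a7 (0.54) and Gabrp, a GABA receptor subunit on the club cell list (0.53). Ldhb, Elapor1 and Aldh1a7 were thus among the top 5 in both. The correlation of Pon1 on this measure was 0.34 with Cyp2f2, 0.30 with Pon3 and -0.01 with Pon2.

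For Pon2 the most alike genes after strain means were subtracted were Tmem123, Cat, Btf3, Mal2 and Cdh1 (r of 0.64 to 0.60), and after group means Tmem123, Sumo2, Hsp90b1, Btf3 and Cdh1 (0.67 to 0.64). For Pon3 they were Glod4, Fundc1, Eif3m, Sdhaf4 and Gtf2b (0.78 to 0.73), and Mrpl32, Stx19, Mrpl30, Eif3m and Psma4 (0.78 to 0.74). No gene was among the top 5 of more than 1 paraoxonase. Between Pon2 and Pon3 the correlation was 0.22 after strain means and 0.10 after group means.

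**Figure D5:**
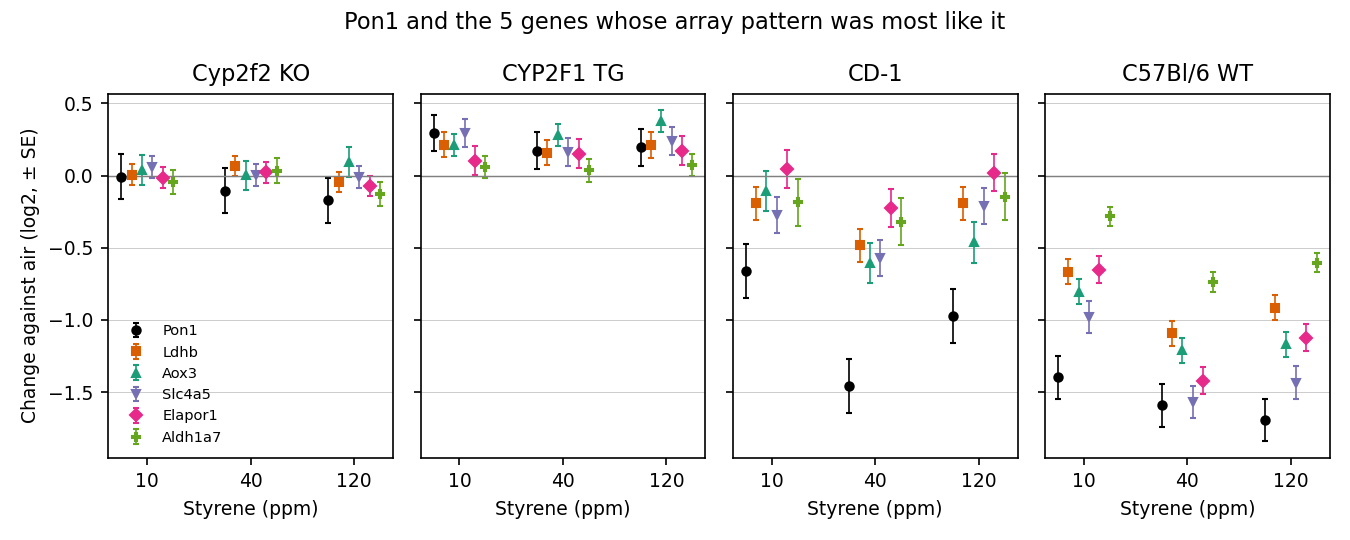
Change against air of the same strain (log2, point ± SE, n = 5 arrays per group) at 10, 40 and 120 ppm styrene of Pon1 and the 5 genes most like it over 80 arrays, in KO, TG, CD-1 and WT mice. In WT at 120 ppm Pon1 stands at -1.69 and the 5 genes between -0.61 and -1.44, and in CD-1 at 40 ppm Pon1 stands at -1.46 and the 5 genes between -0.23 and -0.61.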

How the data were processed

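Total RNA of whole lung was labelled with biotin for Affymetrix 3' IVT arrays, per the labels' protocols. The authors' table gives log2 signal of 45037 probe sets on 80 arrays, and the submitters' processing notes name RMA and Partek. Neither the versions nor whether strains were normalized together is given in the sources used here. The values ran from 1.88 to 13.9 and were used as deposited.

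Probe sets were named through the supplied platform annotation: 28898 had 1 symbol, 551 had several and 15588 had none there. For each gene the probe set with the highest mean was used, and 11406 genes above 4.276, the table's median, in at least 5 arrays entered linear models (limma 3.58.1 under R 4.3.3, with data.table in version 1.17.8). Dose contrasts used the 20 arrays of a strain, strains were compared on the 20 air arrays (Pon1 against WT without the test planned for it, since its WT and CD-1 values chose the family), and differences between strains used 40 arrays. Tests were two-sided, adjusted by Benjamini-Hochberg over all genes, with a threshold of 0.05. Arrays limit the precision by their number: the median SE of a change at 120 ppm was 0.089 for KO, 0.109 for TG, 0.107 for CD-1 and 0.083 for WT. The labels do not say whether replicates shared a litter or a chamber, so p-values measure the spread between the arrays of these mice.

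The members and the gene lists were chosen with earlier results of these data known. Named by rule were the members and Cyp2f2, the 5 genes most like each member on each of 2 measures, up to 4 genes with the lowest p at WT 120 ppm of each gene list and of the club cell and hepatocyte lists, and all tested genes of the chromosome neighbour list. Siglecf, Scgb1a1 and Ahr were named after their values were seen. The scripts were tested on simulated data. Same-numbered replicates did not deviate together (median correlation of 0.05 for KO, 0.01 for TG, 0.03 for CD-1 and -0.02 for WT over 30 pairs each), so the numbers were not treated as pairs. Alternatives covered the probe set, scaling, the filter, the variance model, the arrays in the fit, the replicate block and leaving out each replicate.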

Additional observations from a re-analysis of the deposited data

Results flagged for a closer look

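In 6 of the 48 groups of 5 arrays (3 genes in 16 groups), 1 array stood far from the others by Dixon's criterion, which chance alone reaches in about 1 group in 20. Pon1 was lowest in WT 120 ppm replicate 1 at 8.62 and highest in TG 40 ppm replicate 2 at 10.11. Pon2 was highest in CD-1 120 ppm replicate 2 at 9.56 and lowest in KO 10 ppm replicate 2 at 9.30. Pon3 was lowest in WT 0 ppm replicate 5 at 8.97 and highest in TG 10 ppm replicate 4 at 8.61.

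For 7 pairs of changes, all 5 exposed arrays of 1 strain lay above their air mean and all 5 of the other below theirs. Every pair held WT or CD-1 arrays, which chose the genes, so these differences were not tested. The share of all genes with such pairs is not given here, so nothing is read from their number. For Pon1 the change in TG minus that in WT was 1.69 at 10 ppm and 1.76 at 40 ppm, and in TG minus CD-1 it was 0.95 at 10 ppm and 1.63 at 40 ppm. For Pon3 the change in TG minus that in WT was 0.39 at 10 ppm and 0.46 at 40 ppm, and in KO minus WT it was 0.43 at 40 ppm.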

How the results depend on the processing

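The falls of Pon1 in WT and CD-1 kept their direction under every alternative run, from -1.33 to -1.50 at 10 ppm, -1.45 to -1.70 at 40 ppm and -1.63 to -1.73 at 120 ppm in WT, and from -0.53 to -0.75, -1.34 to -1.60 and -0.88 to -1.09 in CD-1. No dose contrast of KO or TG passed for any of the 3 genes under any alternative. With array medians subtracted, Pon1 in KO at 10 ppm was 0.003. In air, KO minus WT was -0.080 and TG minus WT -0.025 for Pon2, and CD-1 minus WT was -0.163 for Pon2 and 0.060 for Pon3, which changed these calls, and the untested differences of Pon1 were -0.067 for KO, -0.436 for TG and 0.463 for CD-1 minus WT, while TG minus KO was 0.055 for Pon2. Over all doses TG minus KO was 0.019 for Pon2 and -0.090 for Pon3, no longer past the threshold. The TG response minus the KO response was -0.007 at 10 ppm and -0.013 at 120 ppm for Pon2 and -0.052 at 40 ppm for Pon3. Quantile normalization gave 0.003 for Pon1 in KO at 10 ppm, in air -0.124 for Pon1 and -0.115 for Pon2 in KO minus WT, -0.551 for Pon1 and -0.111 for Pon2 in TG minus WT, 0.356 for Pon1 and -0.019 for Pon3 in CD-1 minus WT and 0.004 for Pon2 in TG minus KO, and over all doses 0.014 for Pon2 and -0.104 for Pon3. Both remove the shift of array medians between strains by construction. The Pon2 probe set with the largest SD, which reads near background, gave 0.189 and 0.139 in WT at 40 and 120 ppm, -0.053 in CD-1 at 40 ppm, -0.077, 0.000 and -0.025 in TG at 10, 40 and 120 ppm, -0.098 for CD-1 minus WT and 0.142 for TG minus KO in air, and -0.231 and -0.212 for the TG response minus the KO response at 10 and 120 ppm. The mean of the Pon2 probe sets gave 0.098 for TG minus KO in air, 0.046 over all doses, and -0.094 and -0.074 for the response difference at 10 and 120 ppm. With trend and robust variance, Pon3 in TG minus KO in air was -0.237 and passed (limma adjusted p = 0.0387). One fit over all arrays left 0 chromosome neighbours and 2 fibroblast markers falling in WT at 120 ppm. The cause of these shifts was not tested.

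Leaving out 1 array at a time, Pon3 in CD-1 minus WT in air ran from -0.292 to -0.193, and its call was lost without CD-1 0 ppm replicate 3 or 5 or WT 0 ppm replicate 1, 2 or 3. Pon3 in TG minus KO in air ran from -0.284 to -0.174 and passed without KO 0 ppm replicate 1 or 2 or TG 0 ppm replicate 1. Differences that changed sign were all uncalled. Against air they ran from -0.087 to 0.057 for Pon1, -0.043 to 0.043 for Pon2 and -0.015 to 0.1 for Pon3 in KO at 10 ppm, -0.018 to 0.069 for Pon2 in KO at 120 ppm, and -0.015 to 0.114 and -0.006 to 0.124 for Pon2 in TG at 10 and 40 ppm. Pon2 ran from -0.121 to 0.008 in TG minus KO in air, and its TG response minus the KO response ran from -0.016 to 0.113, -0.115 to 0.027 and -0.003 to 0.147 at 10, 40 and 120 ppm, and that of Pon3 from -0.033 to 0.078 at 40 ppm. With the replicate block no call changed. For example, Pon1 in TG minus KO over all doses was -0.252 with an adjusted p of 0.00572 (limma). Signal near background limits the lower Pon2 probe sets and most hepatocyte markers, and 5 arrays a group limit changes of about the size seen for Pon3.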
